A study of Xenopus tropicalis with 12 samples.

Results

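The transcriptome of the middle brain was compared between juvenile frogs at the end of metamorphosis (Nieuwkoop-Faber stage NF66) and tadpoles in prometamorphosis (NF56), the stage before the climax. The comparison used 6 of the 12 samples of the study, 3 libraries at NF66 and 3 at NF56, chosen by their stage labels. All animals were wild-type Xenopus tropicalis, a small African clawed frog, and the dissected piece held hypothalamus, thalamus and the preoptic area. Libraries of a stage are biological replicates per the labels, and no source used here gives how many animals went into each. NF50 (premetamorphosis) and NF62 (climax), with 3 libraries each, entered the statistical model, and NF62 values are given beside some results as the stage between. NF66 and NF62 are both compared with the same NF56 libraries, so their differences from NF56 are not independent of each other.

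Metamorphosis of the tadpole is driven by thyroid hormone, which rises through prometamorphosis, peaks at the climax and declines by its end. The hormone enters cells, is activated or inactivated by deiodinases, and binds nuclear receptors that sit on target genes with corepressors or coactivators. In the brain, progenitor cells divide and give rise to neurons and glia during this time, axons are myelinated, and the hypothalamus gains control over the pituitary. Comparing the stages on either side of the climax asks which differences are present once hormone has declined again.

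Libraries at NF56 held total expected counts of 23967786, 20505366 and 12046529 for replicates 1, 2 and 3, and those at NF66 held 21426836, 19732166 and 31029733. The shallowest and the deepest library of the study were thus both numbered 3. Levels are given as read counts scaled to library size (CPM), always in the order of replicates 1, 2 and 3, and differences as log2 fold changes of NF66 over NF56 ± SE. Rose, fell and changed are used only of genes for which the Benjamini-Hochberg adjusted p of edgeR's quasi-likelihood test was below 0.05. Spearman correlations of log2 CPM across genes were 0.975 to 0.994 between libraries of the same stage and 0.958 to 0.984 between stages.

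Of 19584 gene models tested, 4135 (21.1%) differed between NF66 and NF56. Percentages here are of all models tested unless another base is named. Among the models that differed, 2160 (11%) were higher at NF66 and 1975 (10.1%) were lower. For 4100 of the 4135 the libraries of the stages did not overlap, so 20.9% of all models tested were both called and without overlap. With 3 libraries a side, a call mostly goes with separate libraries, so this count adds little to the calls. Overlap among models that were not called was not counted. Gene lists hold named and mostly expressed genes, and among the 10555 named models whose log2 CPM averaged 1 or more, 14.1% were higher and 14% lower. The differences were mostly small: 349 models (1.78%) rose and 415 (2.12%) fell by at least 2-fold. The median log2 fold change over all models was -0.00331. By the same test 3704 models (18.9%) differed between NF62 and NF56, of which 1947 (9.94%) were higher and 1757 (8.97%) lower at NF62. Between NF66 and NF62, 620 (3.17%) differed, of which 270 (1.38%) were higher and 350 (1.79%) lower at NF66. On the authors' TPM values, limma on log2(TPM + 1) called 381 higher and 437 lower at NF66, so the numbers of called members below are counts from the model of reads. In a bulk sample, fewer cells of a type and less RNA per cell cannot be told apart.

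**Figure D1:**
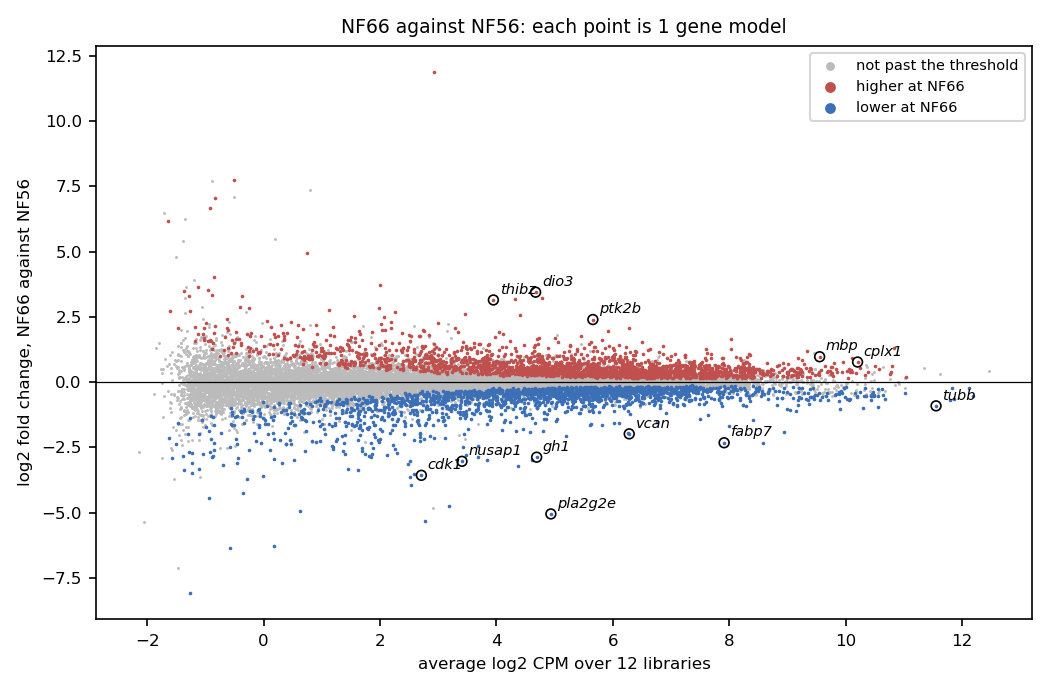
Log2 fold change of NF66 over NF56 (vertical axis) against average log2 CPM over 12 libraries (horizontal axis) for each of the 19584 gene models tested. Red points were higher and blue points lower at NF66 at adjusted p below 0.05, grey points were not past the threshold, and ringed points are genes described in the text, such as dio3 at 3.45 and pla2g2e at -5.05. The point highest on the vertical axis is an unnamed model with no reads at NF56, for which a fitted fold change has no fixed size.

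Region markers were examined first, because the piece was microdissected. The hypothalamic transcription factor genes otp, needed for neuroendocrine neurons, and nkx2-1, which patterns the ventral hypothalamus, gave log2 fold changes of 0.15 ± 0.17 and 0.02 ± 0.18 and did not pass the test (adjusted p = 0.63 and 0.95). otp, at 157.4, 149.5 and 157.1 CPM at NF56 and 227.8, 130.3 and 155.6 CPM at NF66, had overlapping stages. The thalamic markers tcf7l2 and lhx9 were lower at NF66, by log2 fold changes of -0.4 ± 0.11 (adjusted p = 0.025) and -0.42 ± 0.09 (adjusted p = 0.0078). The call for tcf7l2 was lost without NF56 replicate 1 (-0.37), NF56 replicate 2 (-0.37), NF66 replicate 1 (-0.42) or NF66 replicate 3 (-0.3). Here and below, a lost call is an adjusted p of 0.05 or more in a refit without the library named, and the log2 fold change of that refit follows in brackets.

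Some markers of neighbouring regions moved as well. tbr1, a transcription factor of cortical neurons, was at 7.56, 9.86 and 11.6 CPM at NF56 and 13.2, 19 and 18.1 CPM at NF66, with 15.7 ± 2.66 CPM (mean ± SD, n = 3) at NF62. It rose by 0.8 ± 0.2 (adjusted p = 0.014), and this call was lost without NF56 replicate 1 (0.65). The midbrain tectum genes en2 and pax7 fell, with log2 fold changes of -0.83 ± 0.13 and -0.79 ± 0.08 (adjusted p = 0.0009 and 9.6e-05). The model shared by hoxb6 and hoxb3, which count together and mark the hindbrain and spinal cord, was at 3.02, 6.41 and 6.99 CPM at NF56 and 0.923, 0.944 and 0.776 CPM at NF66 and fell by 2.63 ± 0.5 (adjusted p = 0.0034). Other markers of this region were less clear. hoxa2 gave -1.0 ± 0.33 (adjusted p = 0.05). hoxb4 gave -3.7 ± 1.38 (adjusted p = 0.085), with overlapping stages and a range of 0.0409 to 1.67 CPM within NF56. Some region markers thus differed between the stages, and the part of the dissected borders in the results below was not tested.

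**Figure D2:**
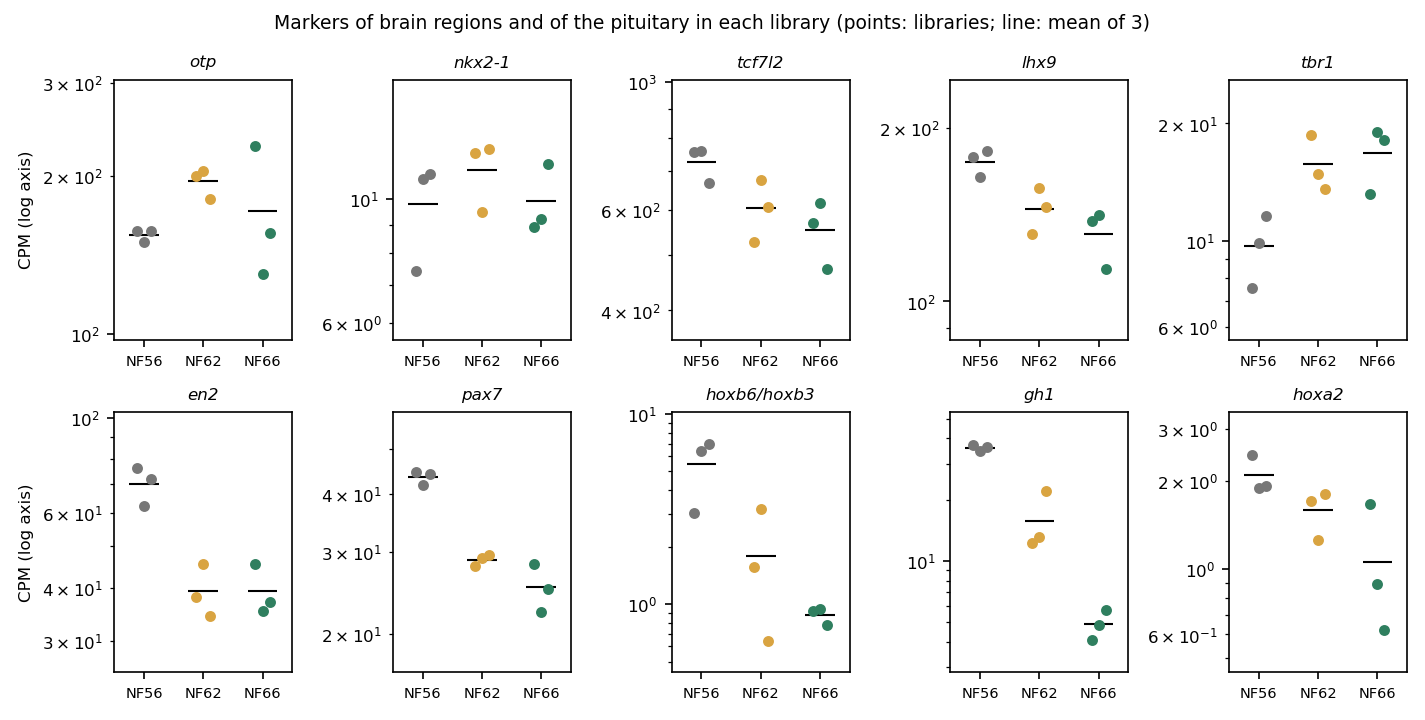
CPM on a log axis for 10 markers in each library at NF56, NF62 and NF66, with points for libraries and a line for the mean of 3. The hypothalamic genes otp and nkx2-1 overlap between NF56 and NF66, tbr1 lies at 7.56 to 11.6 CPM at NF56 and 13.2 to 19 at NF66, and en2, pax7 and gh1 lie lower at NF66 than at NF56 in every library.

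Genes of thyroid hormone signalling were among the largest rises in named genes. dio3, which encodes the deiodinase that inactivates thyroid hormone, was at 2.98, 3.59 and 3.5 CPM at NF56 and 31.7, 33 and 44.6 CPM at NF66. This was a rise of 3.45 ± 0.17 on the log2 scale, or 10.9-fold (adjusted p = 1.4e-06). No NF66 library came near the NF56 range, and NF62 lay higher still at 58.6 ± 2.17 CPM. thibz, the thyroid hormone induced bZIP transcription factor, was at 0.531, 1.36 and 0.397 CPM at NF56 and 7.34, 7.5 and 6.39 CPM at NF66. It rose by 3.15 ± 0.45 (adjusted p = 0.00058), while its NF62 mean was 52.5 ± 5.87 CPM.

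The receptor gene thrb, itself a direct target of the hormone, was at 19, 17 and 19 CPM at NF56 and 47.9, 41.8 and 58.7 CPM at NF66. It rose by 1.43 ± 0.15 (adjusted p = 8.1e-05), with an NF62 mean of 75.8 ± 11 CPM. klf9, a hormone target that promotes neuronal differentiation, was at 25.9, 21.2 and 32.3 CPM at NF56 and 61.6, 40.9 and 90.9 CPM at NF66 and rose by 1.29 ± 0.31 (adjusted p = 0.011), with an NF62 mean of 136 ± 43 CPM. For each of these 4 genes the NF66 mean lay between those of NF56 and NF62. From NF62 to NF66 the fitted differences were -0.68 ± 0.15 for dio3, -2.89 ± 0.36 for thibz, -0.61 ± 0.14 for thrb and -1.07 ± 0.3 for klf9. By the same test they had adjusted p = 0.034, 0.0039, 0.045 and 0.084, so the difference of klf9 did not pass.

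Of 28 tested receptors, deiodinases, transporters, binding proteins and cofactors of thyroid hormone, 4 rose and 1 fell, a share of 17.9% near the 21.1% of all models; the median difference was 0.01 on the log2 scale, which was of the other sign under some of the alternatives tried. The risers included dio3, thrb and the thyrotropin receptor gene tshr (0.94 ± 0.22; adjusted p = 0.0099). The call for tshr was lost without NF56 replicate 1 (0.83). crym, whose product binds thyroid hormone in the cytosol, fell by 0.68 ± 0.13 (adjusted p = 0.0036). thra, the receptor that is broadly present before the hormone rises, lay on a model with few reads and gave -0.01 (adjusted p = 0.99). slc7a5, a subunit of the amino acid transporter that also carries thyroid hormone, gave -0.18 ± 0.24 (adjusted p = 0.68) although its libraries did not overlap, at 142.3, 123.8 and 131.4 CPM at NF56 and 119.8, 113.9 and 117.0 CPM at NF66. dio2 and slco1c1 were not analysed here.

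Of 31 tested genes known to respond to thyroid hormone in tadpole tissues, 10 rose and 6 fell (51.6% called, beside 21.1% of all models). Their median was 0.03, and its sign also depended on the setting. Beside the 4 genes above, the transcription factors bcl6 (1.16 ± 0.11; adjusted p = 3.8e-05), bhlhe40 (1.13 ± 0.19; adjusted p = 0.0017), nfic (1.11 ± 0.07; adjusted p = 6.7e-06) and nfix (0.65 ± 0.11; adjusted p = 0.0023) were higher. nfic was at 35.3, 34.3 and 32.3 CPM at NF56 and 76.1, 68.8 and 75.1 CPM at NF66, and its NF62 mean was 98 ± 0.523 CPM. The largest fall in the list was that of mmp9, a matrix metalloprotease, at -2.3 (adjusted p = 0.0027). With limma on log2(TPM + 1), 6 members were called higher and 2 lower.

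**Figure D3:**
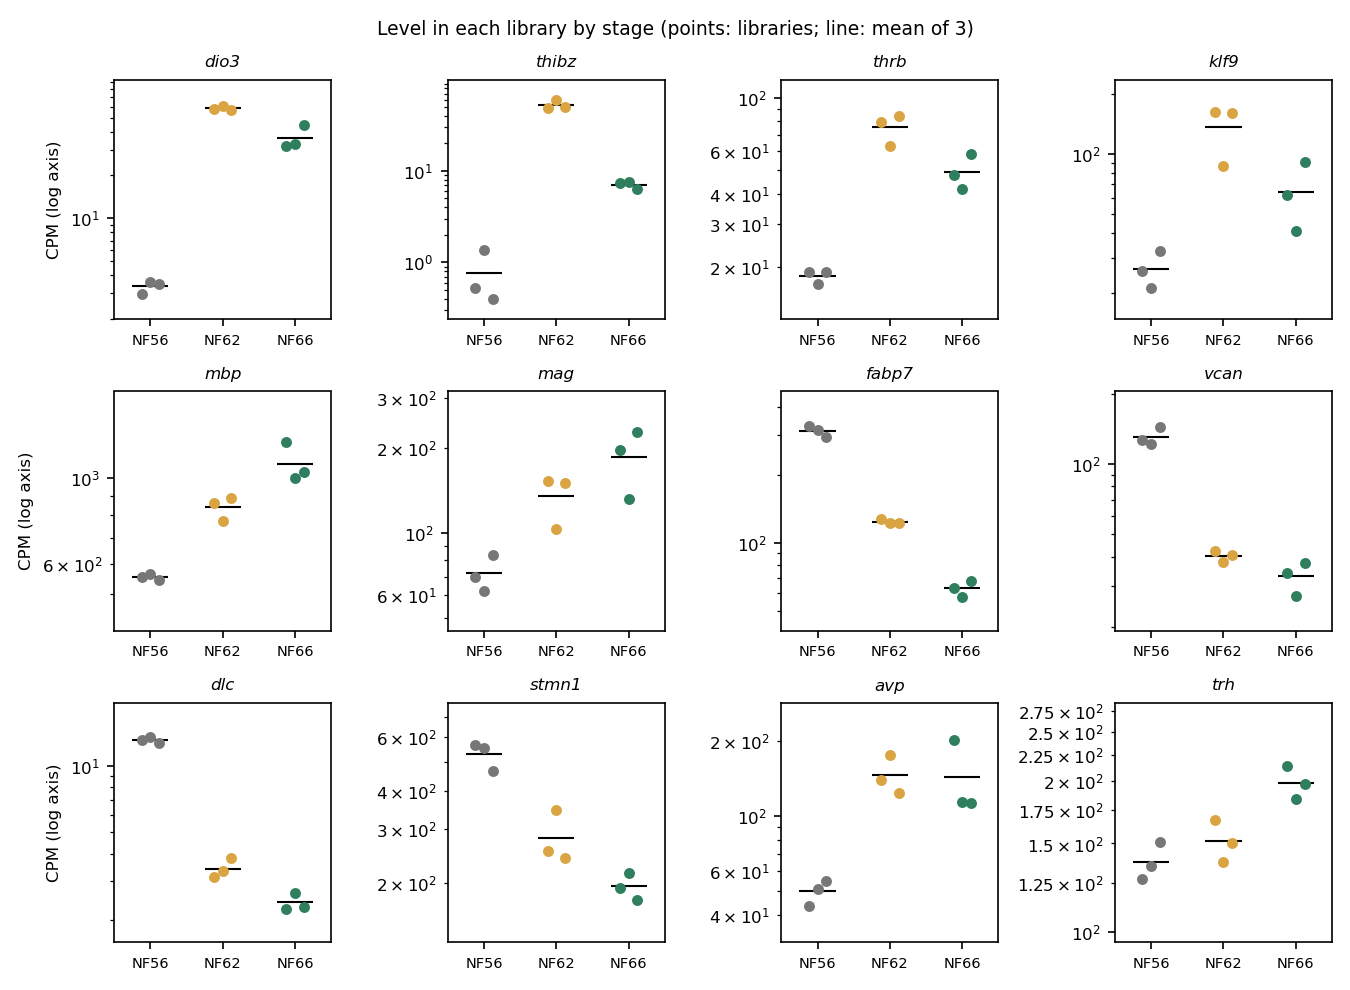
CPM on a log axis for 12 genes in each library at NF56, NF62 and NF66, with points for libraries and a line for the mean of 3. The thyroid hormone target genes dio3, thibz, thrb and klf9 have their highest mean at NF62 and lie above NF56 at NF66. For klf9 the libraries of NF62 and NF66 overlap. The myelin genes mbp and mag rise, and the progenitor and young neuron genes fabp7, vcan, dlc and stmn1 lie lower at NF66 than at NF56 in all 3 libraries.

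DNA methylation genes that changed were mostly lower at NF66, with 10 of 25 tested genes falling and 1 rising. Called members were 44.0%, beside 21.1% of all models, and the median was -0.24. The riser was dnmt3a, which encodes a methyltransferase that sets new methylation marks, at 547.9, 500.0 and 481.1 CPM at NF56 and 723.6, 646.5 and 655.8 CPM at NF66. It rose by 0.41 ± 0.06 (adjusted p = 0.00072), with 845 ± 9.8 CPM at NF62. Genes that copy methylation during replication were lower. dnmt1, the maintenance methyltransferase gene, fell by 0.41 ± 0.07 (adjusted p = 0.0024) and uhrf1, which recruits it, fell by 0.82 ± 0.15 (adjusted p = 0.0029). uhrf1 was at 13.1, 15.3 and 12.4 CPM at NF56 and 8.26, 8.76 and 6.3 CPM at NF66.

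zbtb33, which encodes the methylated DNA binding repressor Kaiso, fell by 0.81 ± 0.07 (adjusted p = 2.9e-05) and ahcy, which clears the by-product of methyl transfer, fell by 0.81 ± 0.1 (adjusted p = 0.00022). tet2, a gene for an enzyme of demethylation, gave -0.24 ± 0.06 (adjusted p = 0.018), a call that was lost without NF56 replicate 1 (-0.21), NF56 replicate 3 (-0.21), NF66 replicate 1 (-0.22) or NF66 replicate 2 (-0.22). gadd45g, linked to demethylation and stress, gave -0.38 ± 0.16 (adjusted p = 0.12), and tet3 was not analysed here. By limma on log2(TPM + 1), 1 of the 25 was called lower.

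Among 48 tested Polycomb and histone methylation genes, 12 fell and 4 rose, with a median of -0.10. Over all models 10.1% were lower and 11% higher, so the share that rose here was below that of all models. ezh2, the methyltransferase of Polycomb repressive complex PRC2, was at 36.2, 31.9 and 28.9 CPM at NF56 and 16.7, 17 and 14.1 CPM at NF66 and fell by 1.02 ± 0.1 (adjusted p = 7.2e-05). cbx2, a chromobox subunit of the PRC1 complex, fell by 1.01 ± 0.1 (adjusted p = 4.9e-05), and kdm3a, a histone demethylase gene, fell by 0.96 ± 0.09 (adjusted p = 3.8e-05). The 4 risers were cbx6, jarid2, setd7 and nsd1, at 0.55, 0.48, 0.39 and 0.17. The median was -0.03 without NF56 replicate 3 and -0.06 without NF66 replicate 2. Only 2 rose without NF56 replicate 2, NF56 replicate 3, NF66 replicate 2 or NF66 replicate 3, and 3 fell by limma on log2(TPM + 1).

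Among the 33 lists, whose members were chosen with earlier results of these data known, the cell division genes had the lowest median. Of 86 tested genes of DNA replication and division, 55 fell and 3 rose (67.4% called, beside 21.1% of all models). Their median difference on the log2 scale was -0.83, beside -0.00331 over all models. cdk1, the kinase that drives entry into mitosis, was at 5.64, 5.97 and 5.16 CPM at NF56 and 0.185, 0.262 and 0.838 CPM at NF66. It fell by 3.57 ± 0.36, or 11.9-fold (adjusted p = 7e-05), and its NF62 mean was 1.59 ± 0.189 CPM. mad2l1, a spindle checkpoint gene, fell by 3.32 ± 0.28 (adjusted p = 2.8e-05), and kif20a, a motor of cell cleavage, fell by 3.13 ± 0.28 (adjusted p = 3e-05).

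Other mitotic genes followed the same direction. nusap1, which bundles spindle microtubules, was at 10.6, 11.3 and 10.6 CPM at NF56 and 1.43, 1.42 and 1.15 CPM at NF66 and fell by 3.03 ± 0.14 (adjusted p = 8.1e-07). ckap2, ccnb3 and the checkpoint kinase gene bub1b fell, with log2 fold changes of -3.51 ± 0.16, -3.01 ± 0.2 and -1.86 ± 0.22 (adjusted p = 6e-07, 6.7e-06 and 0.00019). cks1b and trip13, a cyclin kinase subunit and a checkpoint ATPase, fell, with log2 fold changes of -1.84 ± 0.23 and -1.84 ± 0.27 (adjusted p = 0.00028 and 0.00073). mcm4, part of the replicative helicase, fell by 2.18 ± 0.19 (adjusted p = 3e-05), whereas mcm2 and mcm6 of the same helicase rose.

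The marker gene most used for dividing cells did not pass the test. mki67, the gene of the proliferation antigen Ki-67, was at 50.3, 41.5 and 47 CPM at NF56 and 39.5, 39.3 and 36.6 CPM at NF66 and gave -0.27 ± 0.12 (adjusted p = 0.14), although its libraries did not overlap. top2a, a topoisomerase gene, had low counts at 1.59, 0.729 and 2.54 CPM at NF56 and 0.277, 0.105 and 0.465 CPM at NF66 and fell by 2.37 ± 0.59 (adjusted p = 0.014), a call lost without NF66 replicate 1 (-2.33). The 3 risers were mcm6, mcm2 and a model shared by ndufab1, plk1 and atp6v0c, whose reads may come from any of the 3 genes. At most 1 member of this list rose without NF56 replicate 1, NF56 replicate 3, NF66 replicate 1 or NF66 replicate 3. By limma on log2(TPM + 1), 33 members were called lower and none higher.

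Progenitor and radial glia genes fell in part: 18 of 42 tested were lower and 2 higher (47.6% called, beside 21.1% of all models). Their median was -0.19, or -0.11 without NF56 replicate 3. fabp7, a lipid-binding protein of radial glia, was at 331.2, 316.2 and 296.1 CPM at NF56 and 63, 57.8 and 67.9 CPM at NF66. Its fall of -2.32 ± 0.07 (adjusted p = 3e-08) was 5-fold, and NF62 was intermediate at 124 ± 3.24 CPM. nes, the intermediate filament nestin of progenitors, sat on a pair of models, which fell, with log2 fold changes of -2.08 ± 0.3 and -1.86 ± 0.22 (adjusted p = 0.00066 and 0.00019). vim, the filament vimentin, fell by 1.4 ± 0.05 (adjusted p = 1.3e-07) and hes5.1, a Notch target, fell by 1.79 ± 0.12 (adjusted p = 8.1e-06).

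The 2 risers were cyp19a1 and gja1. cyp19a1, the aromatase gene, which in teleost fish is expressed in radial glia, was at 7.35, 8.45 and 7.47 CPM at NF56 and 20.2, 30.9 and 32.7 CPM at NF66 and rose by 1.85 ± 0.18 (adjusted p = 5.4e-05), with 22.4 ± 0.98 CPM at NF62. gja1, which encodes the gap junction protein connexin 43 of astroglia, rose by 1.47 ± 0.18 (adjusted p = 0.0002). By limma on log2(TPM + 1), 7 members of the list were called lower.

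Genes of neurogenesis and of young neurons fell more widely, 26 of 44 being lower and 3 higher (65.9% called, beside 21.1% of all models). Their median was -0.68. dlc, a delta ligand of Notch in newborn neurons, was at 13.1, 13.5 and 12.6 CPM at NF56 and 2.26, 2.67 and 2.3 CPM at NF66 and fell by 2.44 ± 0.11 (adjusted p = 6.5e-07). neurog1, a proneural transcription factor gene, was scarce at 0.776, 0.874 and 1.11 CPM at NF56 and 0.0923, 0.0524 and 0 CPM at NF66, with each NF66 library below each NF56 library, and fell by 4.26 ± 0.54 (adjusted p = 0.00029). stmn1, which destabilises microtubules in growing neurites, was at 564.6, 552.1 and 465.7 CPM at NF56 and 193.3, 215.7 and 176.0 CPM at NF66 and fell by 1.44 ± 0.15 (adjusted p = 7e-05).

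dcx, the microtubule protein doublecortin of migrating neurons, was at 846.1, 800.3 and 871.8 CPM at NF56 and 379.4, 353.9 and 424.7 CPM at NF66 and fell by 1.12 ± 0.07 (adjusted p = 4.2e-06). The model shared by sox4 and the U4 RNA fell by 1.66 ± 0.12 (adjusted p = 8.3e-06) and counts reads of either. Abundant tubulin genes of young neurons were lower too, tubb3 at -0.99 ± 0.1, tubb2b at -1.02 ± 0.1 and tubb at -0.91 ± 0.1 (adjusted p = 9.4e-05, 6.3e-05 and 0.00011). The mean of tubb2b was 1199 ± 103 CPM at NF56 and 1048 ± 73.1 CPM at NF62, a fitted difference of -0.19 ± 0.1 between those stages, and 590 ± 69 CPM at NF66. The actin genes tmsb4x, an actin-binding peptide, and actg1 fell, with log2 fold changes of -0.69 ± 0.12 and -0.63 ± 0.08 (adjusted p = 0.0023 and 0.00021). At most 1 member rose without NF56 replicate 1, NF56 replicate 2 or NF66 replicate 2, and by limma on log2(TPM + 1) 14 members were called lower.

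Homeobox patterning genes give regions of the neural tube their identity. At NF66, 42 of 72 tested members were lower and 4 higher (63.9% called, beside 21.1% of all models), with a median of -0.62. dbx1, a gene of interneuron progenitors, was at 4.86, 4.47 and 5.56 CPM at NF56 and 1.52, 0.262 and 0.776 CPM at NF66 and fell by 2.52 ± 0.41 (adjusted p = 0.0013). otx2 of the forebrain and midbrain fell by 0.9 ± 0.08 and irx3, a gene of thalamic territory, fell by 0.96 ± 0.1 (adjusted p = 2.6e-05 and 0.00011). The model shared by hoxa7 and hoxa3 gave -2.32 ± 0.68 (adjusted p = 0.033), a call lost without NF56 replicate 2 (-2.22), NF56 replicate 3 (-1.95), NF66 replicate 2 (-1.94) or NF66 replicate 3 (-2.32). The 4 risers were lhx8, vax2, tbr1 and dlx5, at 1.91, 0.89, 0.8 and 0.45, and 2 members rose without NF56 replicate 1. The list also counts tbr1, which encodes a T-box factor and not a homeobox protein. Genes of the list mark regions as well as cells. Of the region markers above, tcf7l2 and en2 were lower too, whereas tbr1, already counted here, was higher. The part of dissection was not tested. By limma on log2(TPM + 1), 12 were called lower.

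Axon guidance genes moved both ways, 15 of 66 rising and 16 falling (47% called, beside 21.1% of all models) with a median of -0.09. ntn3, a netrin gene, was at 27.7, 23.8 and 25.4 CPM at NF56 and 12.6, 6.82 and 7.11 CPM at NF66 and fell by 1.54 ± 0.21 (adjusted p = 0.00053). efna2, an ephrin gene that guides axons to their targets, fell by 0.99 ± 0.06 (adjusted p = 6e-06). The model shared by plxnc1, a semaphorin receptor, and socs2, a cytokine signalling inhibitor, fell by 1.28 ± 0.11 (adjusted p = 3.2e-05). Fitted to the 6 libraries of both stages alone, 8 rose, and by limma on log2(TPM + 1) none rose and 4 fell.

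Of 74 matrix genes, 21 rose and 12 fell (44.6% called, beside 21.1% of all models), with a median of 0.11, or 0.07 without NF66 replicate 2. vcan, the proteoglycan versican of the developing brain matrix, was at 126.1, 121.1 and 144.5 CPM at NF56 and 34.2, 27.2 and 37.5 CPM at NF66. Its fall of -1.98 ± 0.11, or 3.95-fold (adjusted p = 3.2e-06), was already near its size at NF62, where the mean was 40.4 ± 2.33 CPM. hapln3, a link protein gene, fell by 1.04 ± 0.21 (adjusted p = 0.0051), whereas hapln1, the link protein of perineuronal nets, rose by 0.73 ± 0.13 (adjusted p = 0.0024). lamb2, a laminin chain gene, rose by 1.1 ± 0.16 (adjusted p = 0.00072). The proteoglycan-cleaving protease genes adamts5 and adamts9 rose by 0.78 ± 0.07 and 0.77 ± 0.15 (adjusted p = 3e-05 and 0.0041). By limma on log2(TPM + 1), 2 were called higher and 2 lower.

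Part of the myelin genes were higher at NF66. Of 32 tested oligodendrocyte and myelin genes, 13 were higher and 4 lower (53.1% called, beside 21.1% of all models), and the median was 0.33. mbp, a major protein of compact myelin, was at 555.5, 564.9 and 544.9 CPM at NF56 and 1235, 997.8 and 1036 CPM at NF66 and rose by 0.97 ± 0.08 (adjusted p = 2.9e-05), with 840 ± 58.8 CPM at NF62. mag, which encodes a glycoprotein of the inner myelin layer, was at 69.9, 62.3 and 83.7 CPM at NF56 and 196.4, 131.4 and 228.8 CPM at NF66 and rose by 1.37 ± 0.21 (adjusted p = 0.00092). NF66 replicate 2 was the lowest of its stage for both genes and still above every NF56 library.

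The 4 genes that fell were pmp2, enpp6, nkx6-2 and gpr37. pmp2, a fatty acid binding protein of myelin in mammals, was at 54.3, 58.5 and 80.3 CPM at NF56 and 22.8, 19.4 and 19.2 CPM at NF66 and fell by 1.65 ± 0.23 (adjusted p = 0.0006). enpp6, which in mouse marks newly forming oligodendrocytes, was at 3.72, 4.37 and 4.85 CPM at NF56 and 1.57, 1.68 and 1.86 CPM at NF66 and fell by 1.33 ± 0.19 (adjusted p = 0.00066). Without NF56 replicate 3, 2 members fell. The median of 0.33 was 0.2, 0.12 and 0.12 without NF56 replicate 1, NF56 replicate 2 and NF66 replicate 3, and 0.52 without NF56 replicate 3. In the limma fit to log2(TPM + 1), 3 were called higher and 2 lower, and mpz was not analysed here.

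Many synaptic genes rose, by small amounts. Of 66 tested genes of synapses and mature neurons, 36 were higher and 2 lower (57.6% called, beside 21.1% of all models). Their median was 0.32. nefl, the light neurofilament gene, was at 188.4, 199.4 and 188.6 CPM at NF56 and 418.0, 387.3 and 287.9 CPM at NF66 and rose by 0.92 ± 0.13 (adjusted p = 0.00058). cplx1, a regulator of vesicle fusion, was at 867.8, 869.6 and 901.8 CPM at NF56 and 1540, 1449 and 1512 CPM at NF66 and rose by 0.77 ± 0.05 (adjusted p = 4.2e-06). The vesicle protein gene syp rose by 0.62 ± 0.11 (adjusted p = 0.0023), and gad2, which makes the inhibitory transmitter GABA, by 0.83 ± 0.05 (adjusted p = 5.9e-06).

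The model shared by arsj and camk2d, of which the latter is a calmodulin-dependent kinase gene, rose by 0.86 ± 0.06 (adjusted p = 8.9e-06). nptxr, a receptor that clusters glutamate receptors, was at 118.4, 114.5 and 157.6 CPM at NF56 and 227.0, 237.2 and 472.3 CPM at NF66 and rose by 1.27 ± 0.33 (adjusted p = 0.018), a call lost without NF56 replicate 1 (1.2), NF56 replicate 2 (1.18) or NF66 replicate 3 (0.84). The 2 genes that fell were mapt and map2, which stabilise microtubules, at -0.7 and -0.21. Abundant genes outside the list that rose included vsnl1, a neuronal calcium sensor, at 0.92 ± 0.09, tspan7, a membrane protein, at 0.74 ± 0.09, and aldoc, a glycolytic enzyme of astrocytes, at 0.62 ± 0.06 (adjusted p = 5.6e-05, 0.00017 and 6.8e-05). gpx3, an antioxidant enzyme gene, gave 0.74 ± 0.18 (adjusted p = 0.013), lost without NF56 replicate 1 (0.69), NF56 replicate 3 (0.67) or NF66 replicate 2 (0.58). In the limma fit to log2(TPM + 1), 4 of the synaptic list were called higher.

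Ion channel genes that passed the test were higher at NF66. Of 57 voltage-gated and potassium channel genes, 22 rose, none fell and 35 did not pass, with a median of 0.24. Of 35 transmitter-gated channel genes, 8 rose, none fell and 27 did not pass, with a median of 0.17. The called shares, all higher, were 38.6% and 22.9%, beside 11% higher among all models (21.1% in either direction). Among named models whose log2 CPM averaged 1 or more, 14.1% were higher. Fitted values below 0 were found for 10 and 9 members of these lists, and DESeq2 called 1 transmitter-gated channel gene lower. The median of the transmitter-gated list was 0.07 without NF56 replicate 1 and 0.09 without NF66 replicate 3. scn4b, an auxiliary subunit of sodium channels, was at 44.2, 44.2 and 41.7 CPM at NF56 and 98.7, 88.1 and 73.4 CPM at NF66 and rose by 1.0 ± 0.1 (adjusted p = 6.2e-05). cacna1g, a low-threshold calcium channel of thalamic and other neurons, rose by 0.95 ± 0.17 and kcnab1, a potassium channel subunit, by 0.91 ± 0.16 (adjusted p = 0.0024 and 0.0024).

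Among receptors, gria4, an AMPA-type glutamate receptor subunit, was at 85.4, 81.9 and 92.4 CPM at NF56 and 137.4, 135.7 and 154.3 CPM at NF66 and rose by 0.72 ± 0.08 (adjusted p = 0.00012). glrb, the anchoring subunit of glycine receptors, was at 109.3, 113.8 and 117.9 CPM at NF56 and 169.2, 191.9 and 181.4 CPM at NF66 and rose by 0.67 ± 0.07 (adjusted p = 6.4e-05). grin2c, an NMDA receptor subunit, gave 0.61 ± 0.16 (adjusted p = 0.02), lost without NF56 replicate 1 (0.64), NF56 replicate 3 (0.55), NF66 replicate 1 (0.57) or NF66 replicate 2 (0.53). In the limma fit to log2(TPM + 1), 2 voltage-gated and potassium channel genes and no transmitter-gated channel gene were called higher.

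Neuropeptide genes were mostly higher at NF66. Of 52 tested genes of hypothalamic peptides, transmitter enzymes and their receptors, 29 rose and 1 fell (57.7% called, beside 21.1% of all models). The faller was the vasopressin-type receptor gene avpr1a at -0.48. The list median was 0.42, and 3 members fell without NF66 replicate 3. avp, whose product is vasotocin in frogs, a hormone of water balance and social behaviour, was at 43.4, 50.6 and 54.8 CPM at NF56 and 202.8, 113.7 and 112.6 CPM at NF66. It rose by 1.53 ± 0.23 (adjusted p = 0.00091) to a level like that of NF62, 146 ± 27.2 CPM, and NF66 replicate 1 was well above the other NF66 libraries. oxt, of the oxytocin family, rose by 0.71 ± 0.21 (adjusted p = 0.035), but this call was lost without NF56 replicate 1 (0.67), NF56 replicate 2 (0.74), NF56 replicate 3 (0.73) or NF66 replicate 1 (0.35).

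trh, the releasing hormone that in frogs stimulates several pituitary cell types, was at 127.2, 135.3 and 151.1 CPM at NF56 and 213.9, 183.9 and 196.9 CPM at NF66 and rose by 0.53 ± 0.09 (adjusted p = 0.0017). gnrh1, which controls reproduction, was scarce at 0.613, 0.826 and 0.636 CPM at NF56 and 1.99, 3.67 and 3.91 CPM at NF66 and rose by 2.2 ± 0.31 (adjusted p = 0.00055). penk, the enkephalin precursor, was at 87.1, 91.8 and 96.1 CPM at NF56 and 170.3, 185.7 and 166.4 CPM at NF66 and rose by 0.93 ± 0.06 (adjusted p = 8.3e-06). mc4r, a melanocortin receptor that in mammals curbs feeding, rose by 0.92 ± 0.1 (adjusted p = 8.2e-05), and adcyap1, the PACAP precursor, by 0.93 ± 0.11 (adjusted p = 0.00022).

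In the same list, scg2, a secretory granule protein gene, rose by 0.6 ± 0.06 and pcsk1, a peptide processing enzyme gene, by 0.63 ± 0.07 (adjusted p = 6.5e-05 and 0.00017). dbh, the enzyme that makes noradrenaline, rose by 1.45 ± 0.29 (adjusted p = 0.005). lhx8, a transcription factor of ventral forebrain neurons, was at 3.55, 4.23 and 4.37 CPM at NF56 and 7.29, 21.3 and 17 CPM at NF66 and rose by 1.91 ± 0.35 (adjusted p = 0.0026). Its NF66 libraries ranked as those of tbr1 did in having replicate 1 lowest. pomc and cartpt, precursors of feeding-related peptides, gave -0.84 ± 0.31 and -0.1 ± 0.2 (adjusted p = 0.082 and 0.79), with pomc at 63.6, 62.1 and 67.3 CPM at NF56 and 17.3, 37.1 and 53.3 CPM at NF66. In the limma fit to log2(TPM + 1), 10 members were called higher, and crh was not analysed here.

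Pituitary genes were checked because the gland adjoins the dissected piece. Of 14 tested, 3 rose and 3 fell (42.9% called, beside 21.1% of all models), with a median of -0.25, and 1 rose without NF56 replicate 1. gh1, growth hormone, was at 37.1, 34.6 and 36.3 CPM at NF56 and 4.11, 4.82 and 5.71 CPM at NF66 and fell by 2.87 ± 0.3, or 7.33-fold (adjusted p = 8.5e-05), with 15.8 ± 5.49 CPM at NF62. cga, the shared subunit of glycoprotein hormones, fell by 1.63 ± 0.34 (adjusted p = 0.0059), whereas prl, prolactin, gave 0.24 ± 0.4 (adjusted p = 0.76). pcsk1, given above with the peptide genes, is also in this list and rose by 0.63 ± 0.07 (adjusted p = 0.00017). Fitted values in the list ran from -2.87 to 1.08. The summed TPM of the list was 361.5 to 426.5 at NF56 and 178.6 to 310.5 at NF66. Its part in the values of peptide genes that the pituitary also expresses, such as pomc, was not tested.

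Genes of cholesterol synthesis were among those lower at NF66 than at NF56. Of 23 tested genes of cholesterol synthesis and uptake, 13 fell and none rose (56.5% called, beside 21.1% of all models). Their median was -0.46. hmgcs1, an early enzyme of the pathway, was at 402.3, 332.3 and 308.9 CPM at NF56 and 227.5, 150.4 and 185.7 CPM at NF66 and fell by 0.89 ± 0.16 (adjusted p = 0.0028). NF62 lay at 436 ± 37.6 CPM for hmgcs1, against 348 ± 48.6 CPM at NF56.

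Further steps moved alike, with mvd, a later enzyme of the mevalonate route, at -1.16 ± 0.1 and acat2, which joins acetyl groups at its start, at -1.26 ± 0.15 (adjusted p = 3e-05 and 0.00019). ldlr, the receptor for lipoprotein uptake, fell by 0.82 ± 0.16 (adjusted p = 0.0047). acss2.2, an acetyl-CoA synthetase gene, was not in the list and fell by 0.92 ± 0.13 (adjusted p = 0.00047), with 60.8 ± 10.1 CPM at NF56 and 56.1 ± 2.41 CPM at NF62. In NF62 against NF56 the list had 2 genes higher, 2 lower and a median of 0.0, and in NF66 against NF62 none was higher, 12 were lower and the median was -0.42. These comparisons share libraries with each other. In the limma fit to log2(TPM + 1), 6 were called lower at NF66 than at NF56.

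**Figure D4:**
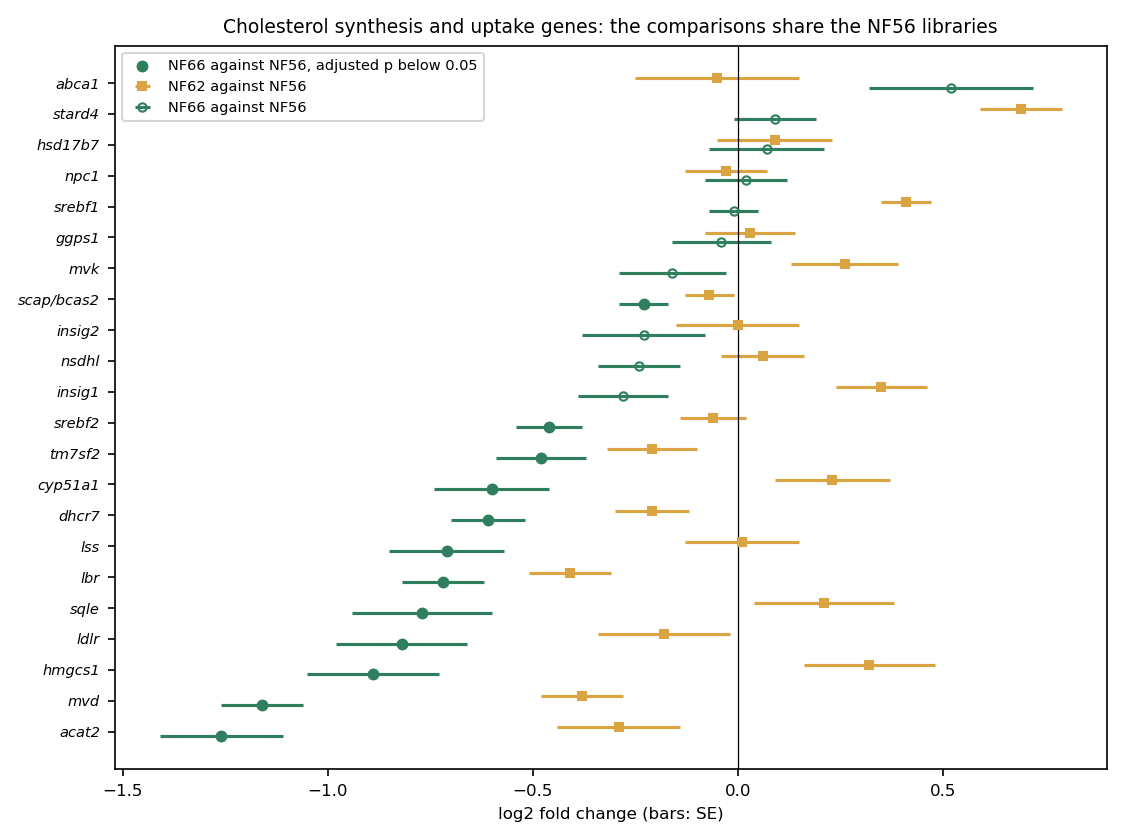
Log2 fold changes with SE bars for 22 genes of cholesterol synthesis and uptake, for NF66 over NF56 (circles, filled where adjusted p was below 0.05) and NF62 over NF56 (squares), which share the NF56 libraries. The 12 filled circles all lie left of 0, from -1.26 for acat2 to -0.23 for the model of scap, which it shares with bcas2.

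Ribosomal protein genes were lower at NF66, though their spread within a stage was large. Of 76 tested, 35 fell and none rose (46.1% called, beside 21.1% of all models). All 76 had a fitted value below 0, with a median of -0.46. rpl3 was at 1567, 1668 and 1476 CPM at NF56 and 802.9, 895.6 and 746.9 CPM at NF66 and fell by 0.95 ± 0.09 (adjusted p = 6e-05). rps18 fell by 0.69 ± 0.09 and rpl5 fell by 0.64 ± 0.1 (adjusted p = 0.00037 and 0.0011). Replicate 2 of both stages lay above its stage mean for these genes, by a median of 0.19 at NF56 and 0.29 at NF66 on the log2 scale, and replicate 3 lay below by 0.17 and 0.24. The number that fell was 19, 17, 17 and 18 without NF56 replicate 1, NF56 replicate 2, NF66 replicate 1 and NF66 replicate 3, 56 without NF66 replicate 2, and 16 by limma on log2(TPM + 1). With the replicate number as a block it was 75 in the 6 libraries and 74 in all 12, though the numbers were not taken as pairs. rplp2 gave -0.63 ± 0.19 (adjusted p = 0.035), lost without NF56 replicate 1 (-0.62), NF56 replicate 2 (-0.51), NF66 replicate 1 (-0.58) or NF66 replicate 3 (-0.52). Models of 33 of the 76 also carry another gene's name.

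Oxidative phosphorylation genes showed no common direction, with 4 of 56 higher, 5 lower and a median of -0.01 whose sign depended on the setting. Their called share of 16.1% was below the 21.1% of all models. The model shared by snrpe, a splicing protein gene, and cox4i1, a subunit of cytochrome c oxidase, fell by 0.35 ± 0.05 (adjusted p = 0.00055). The model of ndufab1, plk1 and atp6v0c gave 0.39 ± 0.1 (adjusted p = 0.017), lost without NF56 replicate 3 (0.33), NF66 replicate 1 (0.37) or NF66 replicate 2 (0.34). The model of atp5l and rps25, genes of ATP synthase and the ribosome, gave -0.38 ± 0.1 (adjusted p = 0.021), lost without NF56 replicate 1 (-0.38), NF56 replicate 2 (-0.32), NF66 replicate 1 (-0.37) or NF66 replicate 3 (-0.3). Without NF56 replicate 1, NF56 replicate 2 or NF56 replicate 3, 1 or 2 members rose, none rose without NF66 replicate 1, and 3 fell without NF56 replicate 1. Stress genes (amino acid starvation, heat shock and unfolded proteins) had 4 of 57 higher and 6 lower. This share of 17.5% was also below the 21.1% of all models. The median was 0.03, which changed sign under some settings, and 2 were higher without NF56 replicate 2. pdia4, a protein folding enzyme of the endoplasmic reticulum, rose by 1.17 ± 0.17 (adjusted p = 0.00066). mthfd2, a mitochondrial folate enzyme, fell by 0.79 ± 0.15 (adjusted p = 0.0041), and the model shared by odc1, the enzyme that starts polyamine synthesis, and pdia6 fell by 0.84 ± 0.06 (adjusted p = 1.1e-05).

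Apoptosis genes had 6 of 30 lower and none higher. This share of 20% lower stood beside 10.1% lower among all models (21.1% in either direction). Among named models whose log2 CPM averaged 1 or more, 14% were lower. Their median was -0.12, or -0.21 without NF66 replicate 3. casp9, an initiator caspase, was at 44.2, 45.3 and 40.6 CPM at NF56 and 29.7, 30.6 and 26 CPM at NF66 and fell by 0.6 ± 0.1 (adjusted p = 0.002). With log2(TPM + 1) values in limma, 3 were called lower.

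nr3c2, the mineralocorticoid receptor gene, was at 14.9, 15.2 and 19.7 CPM at NF56 and 30.6, 31.9 and 39.4 CPM at NF66 and rose by 1.04 ± 0.14 (adjusted p = 0.00034), with 42 ± 3.06 CPM at NF62. nr3c1, the glucocorticoid receptor gene, gave 0.22 ± 0.11 (adjusted p = 0.18). Of 28 glucocorticoid receptor and response genes, 3 rose and 1 fell (14.3% beside 21.1% of all models) with a median of 0.12, the faller being angptl4, a lipase inhibitor, at -0.94 ± 0.21 (adjusted p = 0.0096). The median was 0.07 and 0.04 without NF56 replicate 1 and NF66 replicate 3, and 0.21 without NF56 replicate 3, and 3 fell without NF66 replicate 2. Of 30 other nuclear receptors, 5 rose and 1 fell (20%) with a median of 0.08, and 3 rose without NF56 replicate 1. nr2f5, a COUP-family receptor gene, gave 1.52 ± 0.35 (adjusted p = 0.01), lost without NF56 replicate 1 (1.36).

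Clock genes moved upward in part, 7 of 20 being higher and 2 lower (45% called, beside 21.1% of all models) with a median of 0.15. nr1d2, a repressor of the clock loop, was at 29.7, 34.1 and 36.2 CPM at NF56 and 57.9, 66.1 and 63.6 CPM at NF66 and rose by 0.91 ± 0.09 (adjusted p = 6.5e-05). dbp, a clock output factor, was at 27.2, 25.5 and 31.2 CPM at NF56 and 51.6, 51.3 and 62.8 CPM at NF66 and rose by 0.99 ± 0.13 (adjusted p = 0.00036). With log2(TPM + 1) values in limma, 1 was called higher. No source used here gives the time of day of dissection, so stage and time of day cannot be told apart.

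Nuclear factor I and Kruppel-like factors had 4 of 17 higher and 3 lower (41.2% called, beside 21.1% of all models). Their median was 0.03 and changed sign with the setting, and 1 was lower without NF56 replicate 1 or NF66 replicate 2. Of 15 tested genes of the lin28 and insulin-like growth factor list, 3 rose and 3 fell (40% called), with a median of -0.08. igf2, a fetal growth factor in mammals, was at 9.32, 8.74 and 7.79 CPM at NF56 and 2.77, 2.83 and 2.76 CPM at NF66 and fell by 1.63 ± 0.14 (adjusted p = 2.9e-05). igf2bp3, an RNA-binding protein of fetal tissue in mammals, fell by 1.19 ± 0.19, and igfbp2, a binding protein for these factors, rose by 0.74 ± 0.11 (adjusted p = 0.0011 and 0.00066).

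Immediate early genes, which respond within minutes to activity or handling, had 2 of 31 higher and 1 lower. This share of 9.68% was below the 21.1% of all models, although the median of the list was 0.61. That median was 0.39 without NF56 replicate 1 and 0.24 without NF66 replicate 3. bdnf, a neurotrophin gene, rose by 0.63 ± 0.08 and dusp4, a phosphatase gene, fell by 0.62 ± 0.09 (adjusted p = 0.00027 and 0.0007). klf4 gave 0.61 ± 0.18 (adjusted p = 0.031), lost without NF56 replicate 1 (0.59), NF56 replicate 2 (0.53), NF66 replicate 1 (0.64) or NF66 replicate 3 (0.51). egr1, a transcription factor gene, was at 54.3, 75.6 and 103.1 CPM at NF56 and 144.4, 77.5 and 244.4 CPM at NF66 and gave 1.01 ± 0.49 (adjusted p = 0.18). The stages overlapped, and within NF66 replicate 3 was above and replicate 2 below the stage mean, by medians over the list of 0.38 and 0.33 on the log2 scale.

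The globin models named here were lower, and each carries a pair of names. The model of hbd and hbg2 was at 525.0, 544.5 and 439.1 CPM at NF56 and 99.8, 82.7 and 118.5 CPM at NF66 and fell by 2.32 ± 0.17 (adjusted p = 8.9e-06), with 141 ± 17.1 CPM at NF62. The model of hba3 and hba4 fell by 1.06 ± 0.25 (adjusted p = 0.011) and alas2, the first enzyme of heme synthesis in red cells, fell by 0.82 ± 0.2 (adjusted p = 0.015). Of 24 red cell genes, 6 fell and 4 rose (41.7% called, beside 21.1% of all models), with a median of -0.06 whose sign depended on the setting. Fitted values in the list ran from -2.32 to 1.9, and the 4 members that rose are not described one by one. Their summed TPM was 1301 to 1384 at NF56 and 506 to 799.3 at NF66, and the part of residual blood was not tested.

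Of 46 immune genes, 4 rose and 4 fell, a share of 17.4% near the 21.1% of all models, with a median of -0.08 whose sign changed in some settings. cxcr4, a chemokine receptor of leukocytes and migrating neurons, was at 91.3, 86.8 and 84.8 CPM at NF56 and 49.8, 41.8 and 41.7 CPM at NF66 and fell by 0.98 ± 0.11 (adjusted p = 0.00013). ctss, a microglial protease gene, fell by 0.78 ± 0.18 (adjusted p = 0.01). Of the microglial markers, the complement gene c1qa gave 0.09 ± 0.21 (adjusted p = 0.82), whereas csf1r, a receptor gene, fell by 0.49 ± 0.11 (adjusted p = 0.0076). Fitted values in the list ran from -0.98 to 0.69, and the 4 members that rose are not described one by one.

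Vascular and meningeal genes had 12 of 41 lower and 4 higher, beside 10.1% lower and 11% higher of all models. Their median was -0.17, or -0.11 without NF56 replicate 3. In other refits 7 fell without NF66 replicate 3, and 2 rose without NF56 replicate 1 or NF66 replicate 1. mgp, a matrix protein of vessel walls and cartilage, was at 5.31, 3.74 and 5.09 CPM at NF56 and 0.508, 1.26 and 0.776 CPM at NF66 and fell by 2.48 ± 0.33 (adjusted p = 0.00038). The model named c8g.2 is also named ptgds in the annotation, a prostaglandin synthase gene of the meninges in mammals. It was at 439.3, 465.1 and 363.0 CPM at NF56 and 122.8, 115.8 and 97 CPM at NF66. Its difference was -1.92 ± 0.49 (adjusted p = 0.017), lost without NF66 replicate 3 (-1.82). foxd1, a forkhead transcription factor gene, gave -1.07 ± 0.34 (adjusted p = 0.045), lost without NF56 replicate 1 (-1.18), NF56 replicate 2 (-0.95), NF56 replicate 3 (-1.06), NF66 replicate 2 (-0.73) or NF66 replicate 3 (-1.23). The model of col1a1 and myl4 fell by 0.93 ± 0.14 (adjusted p = 0.00076), with 79.7 ± 7.35 CPM at NF56 and 71.5 ± 10 CPM at NF62.

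Choroid plexus and roof plate genes had 8 of 37 lower and 5 higher with a median of -0.16, which was -0.27 without NF56 replicate 1 and -0.08 without NF56 replicate 3. Over all models 10.1% were lower and 11% higher. Among named models whose log2 CPM averaged 1 or more, these shares were 14% and 14.1%, so the share that rose here was near them. slc4a5, a bicarbonate transporter gene, was at 3.23, 3.89 and 6.67 CPM at NF56 and 1.52, 1.31 and 1.15 CPM at NF66 and fell by 1.77 ± 0.31 (adjusted p = 0.002). lmx1a, a roof plate transcription factor, fell by 1.4 ± 0.18 and kcnj13, a potassium channel gene of this epithelium, fell by 1.24 ± 0.3 (adjusted p = 0.0003 and 0.012). Between 1 and 3 members rose without NF56 replicate 1, NF56 replicate 2, NF56 replicate 3, NF66 replicate 2 or NF66 replicate 3, and 5 fell without NF66 replicate 1. aqp1, a water channel gene, gave 1.0 ± 0.28 (adjusted p = 0.026), lost without NF56 replicate 1 (0.99), NF56 replicate 3 (0.86), NF66 replicate 1 (0.94) or NF66 replicate 2 (0.81). msx1, a roof plate gene, gave -1.05 ± 0.34 (adjusted p = 0.048), lost without NF56 replicate 1 (-1.07), NF56 replicate 2 (-1.04), NF56 replicate 3 (-1.02), NF66 replicate 1 (-1.05), NF66 replicate 2 (-0.97) or NF66 replicate 3 (-1.13), and clic6, a chloride channel gene, gave -1.26 ± 0.33 (adjusted p = 0.018), lost without NF56 replicate 3 (-0.92), NF66 replicate 1 (-1.28) or NF66 replicate 3 (-1.19). ttr, a choroid plexus gene in mammals, was at 0 TPM in 5 of these 6 libraries. Whether it marks this tissue in frogs was not tested, and neither was the part of this tissue in other results.

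Retina and pineal genes had 4 of 31 lower and 2 higher, a share of 19.4% near the 21.1% of all models. Without NF56 replicate 1, NF56 replicate 3, NF66 replicate 1 or NF66 replicate 2, 1 or 2 members fell. rrh, a gene for an opsin-like protein, fell by 1.67 ± 0.35 (adjusted p = 0.0059), while rho, the rod opsin gene, was at or near 0 in all 6 libraries (at most 0.08 TPM). rdh5, an enzyme gene of the visual cycle, gave -1.54 ± 0.44 (adjusted p = 0.028), lost without NF56 replicate 3 (-0.84), NF66 replicate 1 (-1.51) or NF66 replicate 2 (-1.36). gnat2, a cone transducin gene, gave -0.61 ± 0.2 (adjusted p = 0.048), lost without NF56 replicate 1 (-0.48), NF56 replicate 2 (-0.69), NF56 replicate 3 (-0.64), NF66 replicate 1 (-0.5), NF66 replicate 2 (-0.65) or NF66 replicate 3 (-0.69). opn1sw, a retina marker, gave 0.58 ± 0.33 (adjusted p = 0.27). The list's median was 0.05, of either sign across settings. Its fitted values ran from -1.67 to 0.92, and the 2 members that rose are not described one by one. Muscle genes had 7 of 32 higher and 6 lower (40.6% called), with a median of 0.1 that also changed sign, and 4 higher without NF56 replicate 1. A further name is carried by 10 of the 32 models. myh2, a myosin heavy chain gene, rose by 1.08 ± 0.24 and ryr1, a calcium release channel, by 0.6 ± 0.11 (adjusted p = 0.0089 and 0.0024). myh4, another myosin heavy chain gene, gave 1.19 ± 0.29 (adjusted p = 0.014), lost without NF56 replicate 1 (0.95) or NF66 replicate 2 (0.95). The muscle markers acta1 and ckm, each on a model shared with another gene, did not rise. The model shared by acta1 and sf3b5 fell by 0.46 ± 0.06 (adjusted p = 0.00031). That of ckm and hprt1 gave 0.05 ± 0.11 (adjusted p = 0.81). Fitted values in the muscle list ran from -3.09 to 1.86, and its other members that rose are not described one by one.

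**Figure D5:**
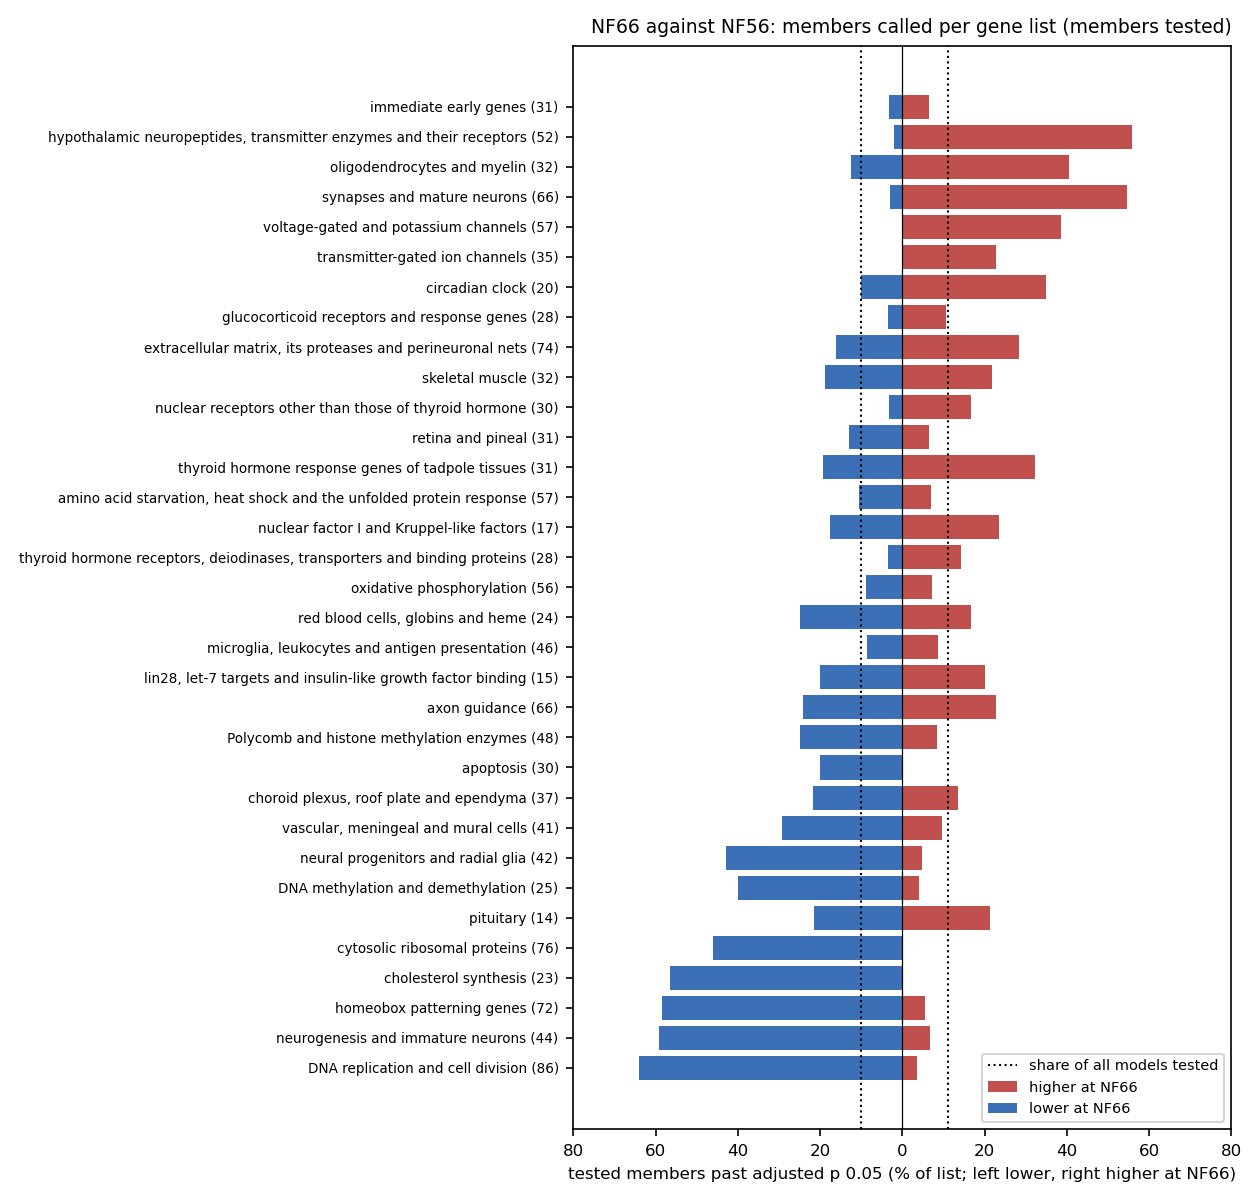
Share of tested members of each of the 33 gene lists that were higher (red, right) or lower (blue, left) at NF66 at adjusted p below 0.05, in percent, with the number tested in brackets and lists ordered by median log2 fold change. Dotted lines mark the share of all models, 11% higher and 10.1% lower; among named models whose log2 CPM averaged 1 or more the shares were 14.1% and 14%. Cell division, young neuron, homeobox and cholesterol lists extend left, and neuropeptide, synapse, channel and myelin lists extend right.

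Beyond the lists, the largest named rises were in genes with few common roles. ptk2b, a tyrosine kinase activated by calcium, was at 17.5, 16.2 and 23.4 CPM at NF56 and 61.2, 111.1 and 126.5 CPM at NF66 and rose by 2.4 ± 0.26 (adjusted p = 0.00012). brs3, a bombesin-type receptor that in mammals acts in energy balance, was at 6.09, 5.1 and 11.5 CPM at NF56 and 19.9, 46.3 and 64.9 CPM at NF66 and rose by 2.56 ± 0.43 (adjusted p = 0.0017). lman1l, a lectin gene, was at 2.61, 2.53 and 9.77 CPM at NF56 and 15.8, 47.7 and 63.5 CPM at NF66 and rose by 3.17 ± 0.61 (adjusted p = 0.0036). In these 3 genes NF66 replicate 1 was the lowest and NF56 replicate 3 the highest library of its stage, as they were for tbr1. The part of the dissected borders in these rises was not tested.

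Other rises of this size were gcgr, the glucagon receptor gene, at 2.48 ± 0.4, phyhip at 2.09 ± 0.35, and matn4, a matrilin of the matrix, at 1.99 ± 0.29 (adjusted p = 0.0012, 0.0018 and 0.00062). vil1, an actin-bundling protein gene, was at 1.14, 1.94 and 1.51 CPM at NF56 and 7.11, 8.65 and 6.95 CPM at NF66 and rose by 2.3 ± 0.28 (adjusted p = 0.00022). Lipid enzymes were present too: cyp4f2, a fatty acid hydroxylase, rose by 2.0 ± 0.19 and pla1a, a phospholipase, by 1.96 ± 0.17 (adjusted p = 4.8e-05 and 3.2e-05).

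The 2 largest falls among named models with at least 5 CPM and libraries that did not overlap were in genes of secreted proteins. The model xb-gene-5779195, described in the annotation as a cysteine-rich secretory protein, was at 7.68, 8.79 and 3.73 CPM at NF56 and 0.0923, 0.21 and 0.186 CPM at NF66 and fell by 5.33 ± 0.52 (adjusted p = 6e-05). pla2g2e, a secreted phospholipase, was at 36.3, 21.5 and 18 CPM at NF56 and 0.785, 0.629 and 0.838 CPM at NF66 and fell by 5.05 ± 0.38, or 33.1-fold (adjusted p = 1.4e-05). Both genes were picked from those whose libraries did not overlap between the stages. Their NF62 means were 0.167 ± 0.117 CPM and 1.75 ± 0.295 CPM, in the same order.

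ptx3, a soluble pattern recognition protein, fell by 2.71 ± 0.26 and znf704, a zinc finger gene, fell by 2.97 ± 0.25 (adjusted p = 4.8e-05 and 2.5e-05). A model named for the microRNA gene xtr-mir-9a-2 was at 35.7, 34.7 and 37.2 CPM at NF56 and 3.14, 0.996 and 7.07 CPM at NF66 and fell by 3.2 ± 0.66 (adjusted p = 0.0054). The value counts reads of that model in a total RNA library, not the mature microRNA.

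Some differences had been reached by the climax and were like it at NF66, within 0.25 on the log2 scale. vstm5, under the name c11orf90, was at 7.48, 7.97 and 7.47 CPM at NF56 and 24.7, 26.4 and 24.9 CPM at NF66 with 25 ± 3.38 CPM at NF62. It rose by 1.73 ± 0.17 over NF56 (adjusted p = 5.8e-05). fbxo2, a ubiquitin ligase subunit for glycoproteins, rose by 1.45 ± 0.14 and phkg1, a glycogen metabolism kinase, by 1.46 ± 0.24 (adjusted p = 6.2e-05 and 0.0015). ltbp4, which holds transforming growth factor beta in the matrix, fell by 1.84 ± 0.11 and stc1, the hormone gene stanniocalcin, fell by 1.97 ± 0.2 (adjusted p = 4.2e-06 and 7.3e-05).

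Others differed at NF66 from NF56 while NF62 was within 0.25 of NF56. tgfbi, a matrix protein induced by transforming growth factor beta, rose by 0.79 ± 0.18 and dnase1l1, a nuclease gene, by 0.76 ± 0.18 (adjusted p = 0.01 and 0.01). calca, the calcitonin gene, gave 0.78 ± 0.24 (adjusted p = 0.039), lost without NF56 replicate 1 (0.87), NF56 replicate 2 (0.83), NF56 replicate 3 (0.65), NF66 replicate 1 (0.68) or NF66 replicate 2 (0.66). crem, a cyclic AMP responsive factor gene, gave 0.73 ± 0.22 (adjusted p = 0.034), lost without NF56 replicate 1 (0.57), NF56 replicate 2 (0.71), NF66 replicate 1 (0.74), NF66 replicate 2 (0.78) or NF66 replicate 3 (0.66), and col16a1, a collagen gene, gave 0.77 ± 0.2 (adjusted p = 0.019), lost without NF56 replicate 1 (0.78), NF56 replicate 3 (0.66) or NF66 replicate 2 (0.56). cyb5r2, a reductase gene, was at 50.2, 45.6 and 34.2 CPM at NF56 and 20.5, 19.5 and 20 CPM at NF66, with 39.6 ± 0.798 CPM at NF62. It fell by 1.12 ± 0.17 and slc7a10, a small amino acid transporter gene of astrocytes, fell by 1.06 ± 0.23 (adjusted p = 0.00083 and 0.0079).

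Of the 158 genes named by rule that passed the threshold, 131 kept their call in each of the 6 fits that left out 1 library. The other 27 lost it in at least 1 of these fits, and those described above have the values from such fits beside them.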

How the data were processed

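Total RNA was sequenced from the dissected middle brain of wild-type Xenopus tropicalis at 4 stages, with 3 libraries each. The authors deposited RSEM expected counts (estimated counts per gene model) for 33875 models and, per the file headers, TPM values in a table per library. Tools named in the submitters' processing notes, without their roles, are RSEM, Bowtie, cutadapt, DESeq2 and CASAVA 1.8.2. No coordinates are printed, because the genome build was not given in the sources used here. Names came from the deposited annotation: 13749 models had a name, 420 had more than 1 and count reads of each gene, and 781 names were found on several models.

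Expected counts, of which 53.7% were not whole (tolerance 1e-06), were rounded. Models were kept by filterByExpr by stage (minimum count 10, minimum total 15), leaving 19584 models with 99.93% of the counts and 11837 of them named. edgeR 4.0.16 in R 4.3.3 fitted a quasi-likelihood model to all 12 libraries with TMM factors, a mean per stage and p-values adjusted after Benjamini and Hochberg (threshold 0.05); biological variation between libraries had a coefficient of 18.3%. SE is the log2 fold change divided by the square root of the F statistic. On simulated counts with 100 genes changed by each size, the test called 67% of 2-fold and 44% of 1.5-fold changes in the right direction. DESeq2 1.42.0 and limma 3.58.1 served as alternatives, as did other scaling and filters, a block by replicate number, thinning to the smallest library and leaving out each library.

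The 33 lists held 1742 symbols, of which 1371 matched a model. Genes were named by a rule that began with a fixed set. In each list with at least 3 called members it took the 3 largest changes at an average log2 CPM of 1 or more. It added the 12 largest rises and falls with at least 5 CPM among genes whose libraries did not overlap between the stages. The 8 most abundant changed by at least 1.5-fold in each direction followed. Last came the 8 with the highest and lowest fold change that were within 0.25 of NF62, or whose NF62 was within 0.25 of NF56. These too were taken only from genes whose libraries did not overlap, at an average log2 CPM of 1 or more. A gene named beyond this rule, such as penk, gad2, dcx, vim or gnrh1, was chosen after its values were seen. Some named genes are not reported here, and others are not described one by one; counts include them. Members and lists were chosen with earlier results of these data known.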

Additional observations from a re-analysis of the deposited data

How the results depend on the processing

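No named gene that was called changed direction under any alternative run. The 2160 higher and 1975 lower models became 381 and 437 with limma on log2(TPM + 1), 351 and 444 with limma on log2(TPM + 0.1), and the cause was not tested. Leaving out 1 library gave 1480 to 2134 higher and 1428 to 1825 lower. Leaving out both libraries numbered 3, an alternative chosen after seeing the data, gave 1761 and 1466. Limma on log2(TPM + 1) and log2(TPM + 0.1) lost 61 and 60 of the 158 named genes' calls, and single libraries 13 to 20.

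The stages share replicate numbers. With the number as a replicate block, 3722 models were higher and 3410 lower in the 6 libraries, and 3326 and 3076 in all 12. Of 76 ribosomal protein genes the block called 75 and 74 lower, beside 35 without it, and of 31 immediate early genes it called 14 higher and 3 lower in the 6 libraries and 2 each way in all 12, beside 2 and 1. Transmitter-gated and voltage-gated channel genes had 4 and 2 called lower in both blocked fits, beside none. Residual correlations of same-numbered libraries were 0.0912, 0.523 and 0.591. NF56 replicate 2 with NF66 replicate 3 gave -0.585, and NF56 replicate 3 with NF66 replicate 2 gave -0.513. NF56 replicate 1 correlated best with NF66 replicate 2 (0.143), so the numbers were not taken as pairs throughout. What libraries numbered 2, and those numbered 3, share across the stages was not tested. NF56 replicate 3 was the shallowest library, at 12046529 counts. With every library thinned to that depth, 1943 models were higher and 1777 lower. Some genes at low CPM had wide errors, such as top2a (SE 0.59), and others did not, such as dlc (SE 0.11).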
